A study of Mus musculus with 8 samples.

Results

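D7 organoids were compared with TECs grown as a monolayer in 2D, which asks how the transcriptome of thymic epithelial cells (TECs) differs between the 2 culture formats. The comparison took 4 of the 8 libraries of the series, namely the 2 titled as TEC organoids at D7 and the 2 titled as 2D cultured TECs, and every gene that reached 1 CPM in 2 or more of these 4 libraries, which left 14306 of the 56923 genes in the files. The cells of all 4 libraries were wild-type EpCAM+ TECs, sorted from the thymi of E16.5 C57BL/6J mouse embryos and grown in the same defined TEC medium with FGF7. 2D cultures grew on laminin-coated plates and were lysed on reaching confluence, after 3 days. Organoids grew from single cells in growth factor-reduced Matrigel, a gel rich in basement membrane proteins. Their medium held the ROCK inhibitor thiazovivin for the first 2 days, and the study does not say whether that of the 2D cultures did. The organoids were freed from the gel in cold PBS after 7 days. Culture format and culture time therefore differ together between the groups and cannot be told apart in this comparison. D3 organoids, which were as old as the 2D cultures, are given beside it. The labels call the 2 libraries of each group biological replicates, and the study counts mice as its replicates per condition. Whether embryos were pooled or shared between groups is not given in the sources used here.

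TECs are the epithelial stroma of the thymus. Cortical TECs attract and commit T-cell progenitors and present self-peptides for positive selection, and medullary TECs express tissue antigens that delete self-reactive T cells. Both arise from the endoderm of the third pharyngeal pouch and need the transcription factor FOXN1 to mature. Epithelial cells on a stiff, flat surface spread, build actin stress fibres and focal adhesions and switch on genes of the SRF, YAP and TEAD factors, whereas cells in a soft gel close into rounded structures with a lumen.

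The files held raw counts on genes from 3′ end sequencing, with totals of 6070767 and 6136660 in 2D and 7612532 and 5084715 in D7 organoids. Values below are CPM, counts per 1000000 counts after scaling by edgeR's TMM factors, which lay between 0.886 and 1.07 in these 4 libraries. A gene was called where the quasi-likelihood test of edgeR, fitted to all 8 libraries and adjusted after Benjamini and Hochberg, gave an adjusted p of at most 0.05. Fold changes are log2 values of D7 organoids over 2D, ± SE, with n = 2 libraries per group. For a single gene, an exact permutation test of 2 libraries against 2 cannot go below p = 0.333, so the calls rest on a variance shared across genes and groups. Where a group held no count, the fold is a lower bound, taken over 3 counts per library (0.547 CPM in 2D and 0.475 CPM in D7 organoids on average). Where it held a few, up to 3 per library, the fold is the ratio of summed counts per summed library size, with the exact (Clopper-Pearson) 95% interval in brackets. Both cover counting error only. *Epcam*, the gene of the protein used for sorting, was expressed in both groups but lower in D7 organoids, at 809 and 718 CPM in 2D and 436 and 434 CPM in D7 organoids. Other TEC markers, described below, differed in both directions, with *Krt8*, *Krt18*, *Krt5* and *Krt14* lower and *Foxn1* higher in D7 organoids. Of the 237 genes named below that were tested, 151 share their position with an annotated gene on the opposite strand. Whether reads were counted by strand is not given in the sources used here, so reads of such pairs may be mixed.

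Almost as many genes were called as not. Of 14306 genes tested, 6852 or 47.9% were called, 3618 (25.3%) higher and 3234 (22.6%) lower in D7 organoids. With no scaling beyond library totals, the split was 4451 higher and 2454 lower, and the median log2 fold change of all genes moved from 0.08 to 0.30. Large changes were common in both directions: 976 of the higher and 553 of the lower genes changed by at least 3 on the log2 scale. These are fitted folds, which are large for genes with almost no count in a group. Of the called genes, 650 had at most 3 counts per library in 2D and 204 in D7 organoids. More genes also passed the filter through D7 organoids alone than through 2D alone. The difference between 976 and 553 therefore depends in part on such genes. The values of the 2 groups did not overlap in 77.3% of the genes tested, so that lack of overlap on its own marks no gene. D3 organoids, set against the same 2D libraries, had 39.7% of genes called. Between the days of organoid culture, 11.1% of genes had risen and 10.8% had fallen by D7.

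**Figure D1:**
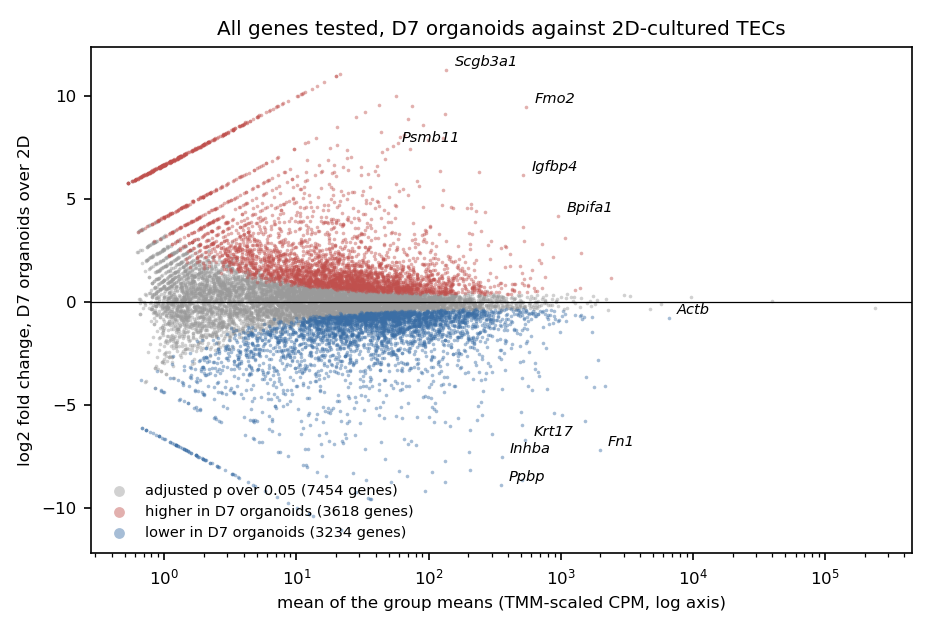
Each point is 1 of the 14306 genes tested, at the mean of its 2 group means in TMM-scaled CPM (log axis) and its log2 fold change of D7 organoids over 2D. The 3618 genes called higher are red, the 3234 called lower blue and the others grey, and the diagonal lines at low levels are genes at 0 in 1 of the groups.

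The 12 largest fitted increases among genes with at least 20 CPM in both organoid libraries were of genes at or near 0 in 2D. The fit ranks a gene with no count in a group high, whatever its bound, so the order is that of the fit, and genes described below, such as *Cyp2f2* and *Tbata*, have measured folds above some of these bounds. *Fmo2*, a flavin monooxygenase of lung, had 1.26 and 1.84 CPM in 2D and 1137 and 1042 CPM in D7 organoids, a log2 fold change of 9.44 ± 0.23 (adjusted p = 1.21e-14). *Scgb3a1*, a secretoglobin of airway secretory cells, went from 0 and 0.184 CPM to 124 and 423 CPM, 2627-fold (471 to 103804), and its 2 organoid libraries differed from each other more than 3-fold. *Tril* (an accessory protein of Toll-like receptors) and *Col14a1* (a fibril-associated collagen) rose 1277-fold (229 to 50487) and 819-fold (227 to 6771), and *Cldn11*, a tight junction claudin, 936-fold (168 to 36987). The next had no count in 2D. They were the scaffold gene *Ush1c* (at least 77.8-fold), the heparan sulfate sulfotransferase *Hs3st3a1* (73.4-fold), the transcription factor *Ascl3* (72.8-fold) and the proton pump subunit *Atp6v1b1* (58.8-fold), all lower bounds. The sorting receptor *Sorcs3*, the secreted factor *Fam3d* and *Pou2af1*, a coactivator of POU factors, completed the 12, at lower bounds of 52.8-fold, 42.8-fold and 40.4-fold. The rule for these 12 and for the 12 decreases below took only called genes whose groups did not overlap. Predicted genes and genes with no symbol were left out. Lack of overlap was thus a condition of entry and adds nothing for these genes.

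The 12 largest fitted decreases among genes with at least 20 CPM in both 2D libraries left almost no transcript in D7 organoids. *Ppbp*, a platelet-type CXC chemokine, had 814 and 588 CPM in 2D and 1.1 and 1.94 CPM in D7 organoids (-8.91 ± 0.29, adjusted p = 5.79e-13). *Ccn2*, encoding the matricellular protein CTGF, had 303 and 225 and 0.98 and 0 CPM (-8.75 ± 0.43, adjusted p = 1.31e-10), and as its count in D7 organoids is of replicate 1 alone, the fitted value was -13.63 without that library. The basement membrane collagen *Col4a3* had 33.8 and 53.3 CPM in 2D and no count in D7 organoids, at least 91.8-fold lower. *Krt20*, the protease gene *Prss22* and the noncoding RNA *Morrbid* had 1 to 4 counts left and were 974-fold (174 to 38509), 925-fold (166 to 36591) and 621-fold (242 to 2282) lower. So had the neuropeptide *Calcb*, the phosphate transporter *Slc34a2* and the membrane protein *Dynap*, at 463-fold (158 to 2248), 755-fold (135 to 29877) and 957-fold (171 to 37838) lower. The ATP-gated channel *P2rx2*, the autophagy gene *Atg9b* and the metalloprotease *Tll1* had no count in D7 organoids and were at least 56.2-fold, 52.9-fold and 52.4-fold lower. Of these, *Col4a3* overlaps *Col4a4* and *Atg9b* overlaps *Nos3* on the other strand, and *Col4a4* had 73.6 and 92.7 CPM in 2D and 3.06 and 1.55 CPM in D7 organoids.

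Among the most abundant genes, ribosomal RNA and mitochondrial genes left out, the groups differed in a few structural transcripts. *Actb* led the coding genes of 2D at 8501 and 8116 CPM and had 4455 and 5203 CPM in D7 organoids (-0.78 ± 0.14, adjusted p = 1.66e-04). *Fn1* (fibronectin) and *Tmsb4x* (the actin-sequestering thymosin beta 4) were among the 5 highest genes of 2D in this ranking, at 3084 and 4771 CPM and 5278 and 2961 CPM, and had 26.6 and 27.1 CPM and 327 and 154 CPM in D7 organoids. *Ccnd2* (cyclin D2) and *Atp1b1* (the beta subunit of the sodium pump) took their places in D7 organoids, at 3180 and 3519 CPM and 2452 and 2334 CPM. In D3 organoids *Fn1* had 44.7 and 60.8 CPM and was called lower than in 2D (adjusted p = 2.86e-12). *Tmsb4x* had 1530 and 2205 CPM at D3 and was not called against 2D (adjusted p = 0.0993). It was lower at D7 than at D3 by -2.95 ± 0.49 (adjusted p = 0.00836). The noncoding RNA *Malat1* and the chaperone *Hsp90ab1* were in the top 5 of both groups in the same ranking and were not called, with unadjusted 95% intervals of the log2 fold change of -0.54 to 0.35 and -0.62 to -0.03.

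Genes of thymic identity were higher in D7 organoids. Of 11 transcription factors of the third pharyngeal pouch and thymus, 8 were called higher and none lower, with a median log2 fold change of 0.77 beside 0.08 for all genes. The pouch factors *Pax1* and *Pax9* were already high in 2D and rose by modest amounts, *Pax9* from 166 and 164 CPM to 278 and 283 CPM (0.77 ± 0.14, adjusted p = 3.04e-04). Larger steps were seen for *Eya1*, a transcriptional coactivator of the pouch (45.9 and 41.2 against 165 and 142 CPM, 1.82 ± 0.18), for *Trp63*, the p63 factor of epithelial progenitors (14.1 and 14.2 against 75.3 and 65.3 CPM, 2.32 ± 0.19), and for *Gata3* (11.2 and 11.8 against 49.3 and 56.8 CPM, 2.20 ± 0.28). *Foxn1* itself had 8.49 and 4.78 CPM in 2D, 8.81 and 9.67 CPM in D3 organoids and 59.9 and 83.6 CPM in D7 organoids. *Hoxa3*, a patterning factor of the pouch, was not called, at 40.3 and 40.7 CPM in 2D and 33.9 and 27.1 CPM in D7 organoids. In bulk RNA, a larger share of cells with a transcript and more RNA per cell cannot be told apart, here and below.

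Of 14 genes of cortical TEC function, some of which the study itself had picked from these libraries, 11 were higher and 2 lower (median 3.51, 3.38 with genes at the floor set to their bound). *Prss16*, the thymus-specific serine protease that shapes MHC class II peptides, had 16.6 and 15.8 CPM in 2D and 374 and 381 CPM in D7 organoids (4.54 ± 0.16, adjusted p = 5.79e-13). *Tbata*, a thymus and brain gene, was 176-fold (59.9 to 856) higher, at 0.181 and 0.368 and 47.2 and 49.6 CPM. The signals for T-cell progenitors rose as well. *Cxcl12* had 6.14 and 5.52 and 264 and 236 CPM (5.42 ± 0.19), *Kitl* (stem cell factor) 13.9 and 16.7 and 199 and 181 CPM (3.63 ± 0.18) and *Ccl25* 9.76 and 7.36 and 82 and 67.1 CPM (3.12 ± 0.23). The chemokine scavenger *Ackr4* followed at 4.7 and 0.92 and 124 and 109.7 CPM (5.36 ± 0.34). Both organoid libraries were above both 2D libraries for each of these, but the groups did not overlap in 77.3% of all genes tested either. The exceptions were *Ctsl*, the cathepsin of cortical antigen processing (711 and 607 in 2D against 291 and 227 CPM, -1.34 ± 0.15), and the cytokine *Tslp* (9.58 and 5.7 against 2.08 and 2.52 CPM), which was not called without any 1 of the 4 libraries (-2.06 to -1.31).

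MHC class II genes rose together. All 7 genes of the list that passed the filter were called higher (median 3.86), and 4 others were under 1 CPM in all but 1 library at most. *H2-Aa* had 4.34 and 2.02 CPM in 2D and 61.7 and 63.4 CPM in D7 organoids (4.29 ± 0.24, adjusted p = 1.61e-10). The invariant chain *Cd74* had 4.7 and 7.91 and 79 and 105 CPM (3.86 ± 0.24), and *Ciita*, the factor that switches on the class II genes, 2.35 and 0.736 and 5.51 and 9.89 CPM (2.26 ± 0.44). The class I genes did not move with them. *H2-K1* had 237 and 178 CPM in 2D against 58.8 and 55.8 CPM (-1.85 ± 0.18), *H2-D1* 169 and 133 against 45.9 and 27.1 CPM (-2.03 ± 0.22) and their partner *B2m* 317 and 313 against 97.2 and 84.5 CPM (-1.79 ± 0.16), all lower in D7 organoids. The peptide loading and immunoproteasome genes *Tap1* (1.47 ± 0.25), *Tapbp* (1.24 ± 0.20) and *Psmb10* (2.55 ± 0.20) were higher. Over the whole class I list, 4 of 12 were higher and 5 lower, beside 25.3% and 22.6% of all genes tested. Sequences of H2 genes are close to one another, and how reads that match several were counted is not given in the sources used here. Interferon response genes had 4 of 16 higher, 4 lower and a median of 0.05, near the 25.3%, 22.6% and 0.08 of all genes tested.

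Medullary TEC genes were mostly lower than in 2D, with 2 of 13 higher and 7 lower (median -1.36). Between the days of organoid culture, however, 8 of the 13 were higher and 2 lower at D7 than at D3. *Krt14* had 913 and 1037 CPM in 2D and 22.8 and 26 CPM in D7 organoids (-5.33 ± 0.19), and *Cldn4* 1095 and 1194 and 55 and 64.6 CPM (-4.26 ± 0.16). *Aire*, *Fezf2*, *Ccl19*, *Ccl22* and *Cd86* were below the filter in both groups. Markers of mimetic TECs, the medullary cells that resemble peripheral cell types, gave 5 of 9 higher and 2 lower. *Gp2*, a microfold cell gene, had 0.361 and 0.184 CPM in 2D and 31.7 and 36.8 CPM in D7 organoids, 123-fold (41.9 to 600.0) higher, and *Foxi1*, the ionocyte factor, 0 and 0.184 and 28.7 and 17.8 CPM, 268-fold (47.9 to 10637) higher. The tuft cell factor *Pou2f3* was low but called higher (0 and 0.368 against 1.84 and 2.71 CPM, adjusted p = 0.0305), a call lost without 2D replicate 1 (2.55) or D7 replicate 1 or 2 (3.75 and 3.20). *Foxj1*, the factor of ciliated cells, was the exception at 108 and 122 CPM in 2D against 6.62 and 4.85 CPM in D7 organoids (-4.30 ± 0.36).

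**Figure D2:**
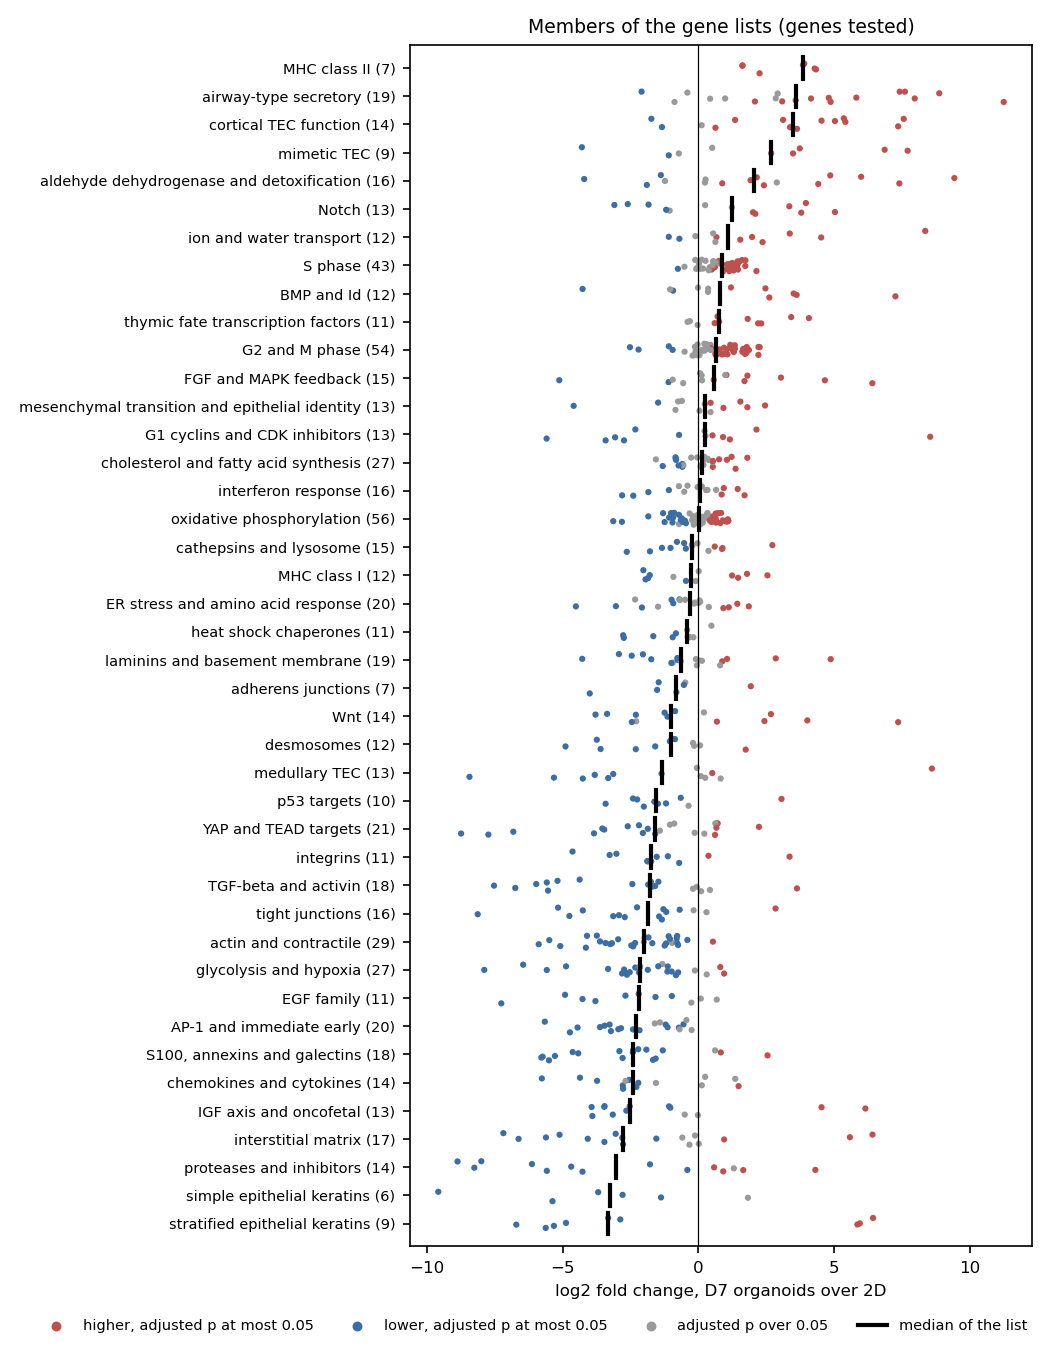
Each row is a gene list, with the number of its genes tested in brackets, and each point a member at its log2 fold change of D7 organoids over 2D. Red and blue points were called higher and lower, grey points were not called, and the black bar is the list's median, from -3.33 for stratified epithelial keratins to 3.86 for MHC class II.

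Genes of the contractile actin cytoskeleton were lower in D7 organoids nearly throughout. Of 29 tested, 26 were called lower and 1 higher, beside 22.6% and 25.3% of all genes, with a median log2 fold change of -2.01. *Tpm1*, a tropomyosin of stress fibres, had 3432 and 3330 CPM in 2D and 203 and 189 CPM in D7 organoids (-4.11 ± 0.17, adjusted p = 3.42e-12). *Cald1* (caldesmon) had 2912 and 2861 and 227 and 241 CPM (-3.63 ± 0.16). The smooth muscle genes *Tagln* (54.2 and 65.3 against 0.735 and 1.36 CPM, -5.89 ± 0.42), *Tpm2* (503 and 493 against 11.8 and 10.1 CPM, -5.50 ± 0.23) and *Acta2* (135 and 105 against 3.92 and 2.91 CPM, -5.09 ± 0.33) had the largest folds. Every 2D library was above every organoid library for these 5 genes, beside 77.3% of all genes tested without overlap in either direction. Crosslinkers, motors and adhesion plaque genes fell too, among them *Actn1* (alpha-actinin, -3.25 ± 0.15), *Myl12a* (myosin light chain, -3.42 ± 0.20), *Myh9* (non-muscle myosin, -1.98 ± 0.17) and *Pdlim5* (-3.19 ± 0.23). Of the 29, only *Csrp1*, a LIM protein, was called higher, by 0.54 ± 0.18, and it was not called without 2D replicate 1 or 2 (0.49 and 0.59) or D7 replicate 2 (0.43). *Actg1* was listed at 4.52 and 6.62 CPM in 2D and 2.94 and 2.71 CPM in D7 organoids. It has near-identical copies among which reads may be split, so its value is uncertain. *Srf* itself was near the limit of detection, at 1.63 and 2.39 and 0.858 and 0 CPM, and was not called.

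Many contractile genes carry a CArG box, the binding sequence of SRF, near their start, so the promoters of the list were read from RefSeq (build GRCm38.p6). The window ran from 250 bases before a start to 50 bases after it, and 10261 of the genes tested had at least 1 window. The CArG box was searched on both strands. It was present in 8 of 26 list members with a window, or 30.8%, and in 1.61% of all genes tested. Counted per window over the whole table, the share was 1.63%. The list was chosen for contractile genes and holds *Srf* and its cofactor *Fhl2*, so a high share is partly built in by that choice. Among all genes tested the box was in 2.2% of those called lower, 1.3% of those called higher and 1.48% of those not called. It was in 2 of 16 AP-1 and immediate early genes with a window. Of the 8 members with a box, 6 were called lower and 2, *Actg1* and *Srf*, were not called. Of all 29 members tested, 26 were called lower, so members with a box were not called lower more often than the list as a whole. A match is a description of the letters and not of binding. The 250 bases before the start are printed, 5′ to 3′, for the 4 called members with a box that had the largest folds, with the box in capitals.

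Fhl2: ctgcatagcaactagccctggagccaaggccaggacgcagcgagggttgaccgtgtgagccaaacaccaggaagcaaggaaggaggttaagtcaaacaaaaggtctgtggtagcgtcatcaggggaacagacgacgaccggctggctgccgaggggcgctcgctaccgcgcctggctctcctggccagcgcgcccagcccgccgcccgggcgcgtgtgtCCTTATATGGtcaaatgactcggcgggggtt
Vcl: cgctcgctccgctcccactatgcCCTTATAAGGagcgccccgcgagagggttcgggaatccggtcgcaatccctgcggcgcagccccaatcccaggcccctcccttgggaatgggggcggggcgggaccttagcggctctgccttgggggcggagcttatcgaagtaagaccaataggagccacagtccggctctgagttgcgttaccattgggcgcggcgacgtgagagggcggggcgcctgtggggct
Cnn2: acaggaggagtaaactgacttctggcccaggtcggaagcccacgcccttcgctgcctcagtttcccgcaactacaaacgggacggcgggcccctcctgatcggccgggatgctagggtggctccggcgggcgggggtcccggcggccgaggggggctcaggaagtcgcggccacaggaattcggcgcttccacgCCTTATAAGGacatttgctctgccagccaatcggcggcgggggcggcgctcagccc
Myl9: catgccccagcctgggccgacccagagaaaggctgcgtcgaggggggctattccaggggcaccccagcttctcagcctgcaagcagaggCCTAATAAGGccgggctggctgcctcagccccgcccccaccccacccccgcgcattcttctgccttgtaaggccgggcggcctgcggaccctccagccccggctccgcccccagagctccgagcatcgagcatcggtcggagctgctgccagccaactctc

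In these windows the box began 31, 227, 56 and 161 bases before the start, respectively. *Fhl2*, a LIM cofactor of SRF, lies on the minus strand (chr1:43163962-43164211) and had 212 and 168 CPM in 2D and 12.6 and 8.34 CPM in D7 organoids (-4.15 ± 0.27, adjusted p = 1.83e-09). *Vcl* (vinculin, of adhesion plaques, plus strand, chr14:20929148-20929397) had 396 and 418 and 33.8 and 26.6 CPM (-3.74 ± 0.18, adjusted p = 1.80e-11). *Cnn2* (calponin, plus strand, chr10:79988350-79988599) had 312 and 318 and 58.6 and 60.5 CPM (-2.40 ± 0.16, adjusted p = 1.72e-09). *Myl9* (myosin regulatory light chain, plus strand, chr2:156775214-156775463) had 34.9 and 30.9 and 14.3 and 13.4 CPM (-1.24 ± 0.33, adjusted p = 0.00465). All 4 were lower in both organoid libraries than in either 2D library, beside 77.3% of all genes tested without overlap in either direction. The TEAD motif CATTCC, searched on both strands, was in 7 of 14 YAP and TEAD targets with a window. That list was chosen for targets of these factors, so a high share is partly built in by that choice. In the actin list the TEAD motif was in 9 of 26. It was in 14.4% of genes called lower, 15.8% of those called higher, 13.9% of those not called and 14.5% of all genes tested. The AP-1 motif TGANTCA was in 8.07%, 6.04%, 5.38% and 6.2% of the same sets, in that order. None of the 16 AP-1 and immediate early genes with a window held it. Counted per window over the whole table, and not per gene, the TEAD and AP-1 motifs were in 14.7% and 7.81%.

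Genes that YAP and TEAD switch on in spread cells followed the actin genes in part, with 11 of 21 lower and 4 higher (median -1.59). Beside *Ccn2*, the largest folds were of *Ankrd1* (278 and 251 CPM in 2D, 0.858 and 1.75 CPM in D7 organoids, -7.74 ± 0.45), *Ccn1* (93.4 and 81.3 and 0.735 and 0.776 CPM, -6.82 ± 0.40) and the feedback gene *Amotl2* (98.9 and 109.6 and 8.33 and 5.82 CPM, -3.85 ± 0.31). Both organoid libraries were below both 2D libraries for these genes, beside 77.3% of all genes tested without overlap in either direction. The 4 higher members were *Ccdc80* (51.3 and 46.7 and 238 and 223 CPM, 2.23 ± 0.17), *Rbms3* (0.66 ± 0.15) and 2 more by less than 1 on the log2 scale. The other 6 tested were not called.

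The AP-1 and immediate early genes, which respond fast to stretch, growth factors and handling, had 15 of 20 members lower and none higher (median -2.29). *Junb* had 138 and 125 CPM in 2D and 15.4 and 12.4 CPM in D7 organoids (-3.23 ± 0.19), *Klf6* 371 and 322 and 32.6 and 30.1 CPM (-3.46 ± 0.21) and *Ier3* 259.9 and 251 and 21.9 and 19.2 CPM (-3.63 ± 0.22). *Egr1* moved least of those named, from 65.6 and 60.3 to 38.6 and 37.8 CPM (-0.72 ± 0.22), and was not called without 2D replicate 1 (-0.66) or D7 replicate 2 (-0.71). The groups were also collected in different ways, 2D cells by lysis on the plate and organoids after release from the gel in the cold, and the part of collection in these values was not tested. Heat shock chaperones gave 5 of 11 lower and none higher, with *Hspb1* at 105 and 95.7 and 17.3 and 12.2 CPM (-2.75 ± 0.22) and *Hspa1b* at 149 and 129.9 and 21.6 and 19 CPM (-2.77 ± 0.24).

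Matrix made by the cells and the enzymes that remodel it were also lower. In the interstitial matrix list 10 of 17 were lower and 3 higher (median -2.78). *Fn1* differed by -7.19 ± 0.24 (adjusted p = 5.79e-13), *Tnc* (tenascin C) had 999.7 and 1142 CPM in 2D and 62.7 and 64 CPM in D7 organoids (-4.08 ± 0.16), and the crosslinking oxidases *Lox* and *Loxl2* differed by -5.12 ± 0.46 and -6.63 ± 0.50. The 3 higher were *Col6a1* (0 and 0.736 and 15.8 and 21.3 CPM), *Col6a2* (0 and 0.184 and 7.84 and 11.2 CPM, 100.5-fold, 17.7 to 4001) and 1 more collagen. Proteases and their inhibitors gave 9 of 14 lower and 4 higher (median -3.03, -2.61 with genes at the floor set to their bound). *Plau*, the urokinase of migrating epithelium, had 231 and 192 CPM in 2D and 0.98 and 0.194 CPM in D7 organoids (-8.26 ± 0.33, adjusted p = 2.43e-12). *Timp1* had 196 and 205 and 5.76 and 10.3 CPM (-4.69 ± 0.31), and *Mmp13* and *Mmp10* had no count in D7 organoids, at least 19.8-fold and 10.8-fold lower. *Mmp2* rose from 1.45 and 0.552 to 21.3 and 19.2 CPM (4.31 ± 0.47) and *Serpine2* from 97.6 and 93.3 to 294 and 307 CPM (1.65 ± 0.16).

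The receptors for matrix followed. Of 11 integrin genes 9 were lower and 2 higher. *Itgb1*, the beta chain shared by most laminin, collagen and fibronectin receptors, had 880.4 and 859.8 CPM in 2D and 257 and 213 CPM in D7 organoids (-1.89 ± 0.15, adjusted p = 1.15e-08). *Itgb6* (11 and 7.54 against 0.613 and 0 CPM) and *Itgb3* (9.76 and 8.83 against 0.613 and 1.36 CPM) fell by 4.64 and 3.27 on the log2 scale. Without D7 replicate 1 the former was at -8.80, and the latter was not called (-2.76). *Itga1*, the alpha chain of a collagen receptor, rose from 9.22 and 9.2 to 86 and 104 CPM (3.36 ± 0.23), and 1 other member was higher. The genes of the basement membrane itself were divided, with 4 of 19 higher and 8 lower. *Lama3* and *Lamb3*, laminin chains of hemidesmosomes, were lower, with log2 fold changes of -1.74 ± 0.18 and -2.93 ± 0.23. *Col7a1*, of the anchoring fibrils, went with them (20.2 and 37.5 against 1.84 and 0.969 CPM, -4.28 ± 0.57). *Lama4* went the other way (3.98 and 1.29 against 73 and 83.6 CPM, 4.88 ± 0.38), as did *Col4a6* (2.85 ± 0.33) and *Lamb2* (1.06 ± 0.27). *Lamb1*, the most abundant of the list, was not called, with a 95% interval of -0.18 to 0.44.

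**Figure D3:**
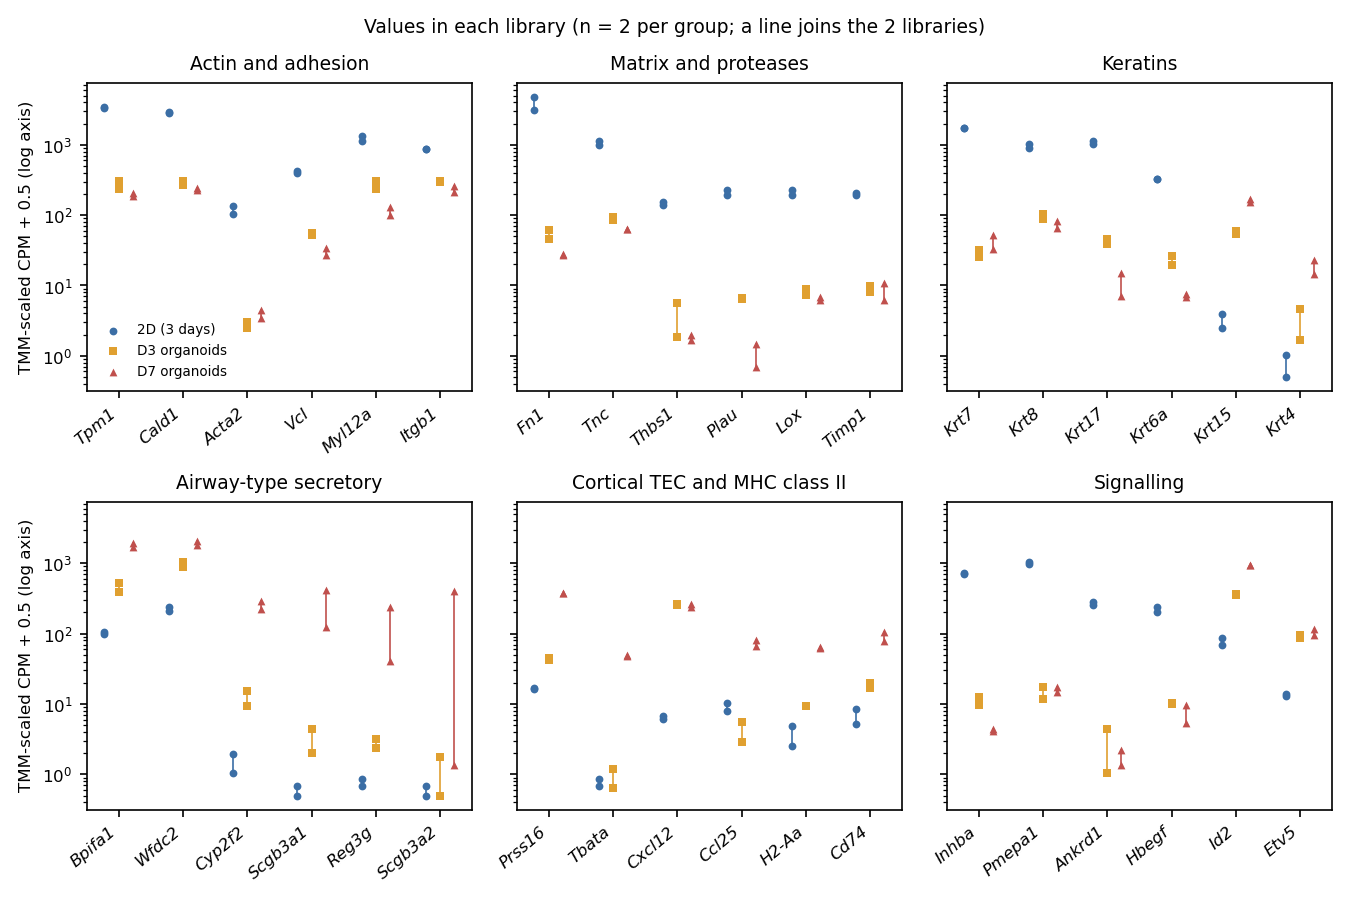
Each point is 1 library at its TMM-scaled CPM plus 0.5 (log axis), for 2D cultures at 3 days (blue circles), D3 organoids (orange squares) and D7 organoids (red triangles), with a line between the 2 libraries of a group. The actin and matrix genes and *Krt7*, *Krt8*, *Krt17* and *Krt6a* lie far below 2D on both days, the airway-type genes, *Prss16*, *Tbata*, *H2-Aa* and *Cd74* lie highest at D7, and *Scgb3a2* was high in 1 of the 2 D7 libraries.

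Keratins changed in kind as well as in amount. Of the simple epithelial keratins 5 of 6 were lower and none higher. *Krt7* had 1734 and 1727 CPM in 2D and 32.3 and 51.6 CPM in D7 organoids (-5.38 ± 0.24, adjusted p = 1.96e-11), and *Krt18* and *Krt8*, the pair of simple epithelia and cortical TECs, fell by 2.80 and 3.70 on the log2 scale. Of the stratified keratins 6 of 9 were lower and 3 higher. The wound and contact keratins *Krt17* (1017 and 1114 against 6.62 and 14.5 CPM, -6.71 ± 0.29) and *Krt6a* (330.3 and 322 against 6.25 and 6.98 CPM, -5.63 ± 0.26) and the basal *Krt5* (742 and 636 against 71.5 and 65.7 CPM, -3.33 ± 0.18) were lower. *Krt15*, a basal keratin of quiescent progenitors in other epithelia, was the reverse at 1.99 and 3.49 and 151 and 169.9 CPM (5.86 ± 0.27, adjusted p = 1.56e-11). *Krt4*, of wet stratified epithelium, rose too (0.542 and 0 against 14.1 and 22.3 CPM, 63.1-fold, 21.3 to 308). The median of the stratified list, -3.33, was -5.33 without D7 replicate 2.

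Cell junction genes were mostly lower. Tight junction genes gave 13 of 16 lower and 1 higher (median -1.85), with *Cldn6*, a claudin of embryonic epithelium, at 415 and 409 CPM in 2D and 0.98 and 2.13 CPM in D7 organoids (-8.14 ± 0.41) and *Cldn1* at 57.1 and 50.2 and 1.96 and 0.776 CPM (-5.17 ± 0.40). *Cldn8* alone was higher (1.99 and 1.1 against 12.1 and 10.3 CPM, 2.84 ± 0.53). Desmosome genes gave 8 of 12 lower and 1 higher, *Dsc3* (34.7 and 29.6 against 112 and 103 CPM, 1.74 ± 0.19), while *Pkp1* (-4.90 ± 0.32) and *Dsg3* (-3.75 ± 0.39) were the furthest down. Adherens junction genes gave 5 of 7 lower and 1 higher. In this list *Ctnnd1* (p120 catenin) had 220.3 and 174 CPM in 2D but 20.6 and 2.13 CPM in the 2 organoid libraries, which differed widely. Among genes of mesenchymal transition and epithelial identity, *Vim* (vimentin) was lower (201 and 151 against 7.72 and 6.59 CPM, -4.60 ± 0.26) and the epithelial factors *Grhl1* (2.46 ± 0.33) and *Ehf* (1.80 ± 0.24) higher, as was *Snai2* (0.93 ± 0.16). In all, 5 of 13 were higher and 2 lower. Small calcium-binding and membrane-repair proteins were mostly lower, with 15 of 18 S100, annexin and galectin genes lower and 2 higher. *S100a6* had 2115 and 1919 CPM in 2D and 27.3 and 62.8 CPM in D7 organoids (-5.51 ± 0.31), *Anxa1* 3373 and 2593 and 71.9 and 34.3 CPM (-5.79 ± 0.30) and *Lgals1* 463 and 458 and 8.33 and 8.92 CPM (-5.74 ± 0.19, adjusted p = 4.36e-13). *S100a1* was the main exception (13.4 and 20.2 against 80.4 and 117 CPM, 2.55 ± 0.30).

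Ligands and targets of the activin and TGF-beta pathway were lower in D7 organoids, with 13 of 18 genes lower and 1 higher (median -1.80). *Inhba*, the chain of activin A, had 706 and 721 CPM in 2D and 3.92 and 3.68 CPM in D7 organoids (-7.54 ± 0.21, adjusted p = 6.78e-14). Its antagonist *Fst* (follistatin) went with it (124 and 98.6 against 2.82 and 1.75 CPM, -5.54 ± 0.33). The target and feedback gene *Pmepa1* had 962 and 1035 and 17 and 14.3 CPM (-5.98 ± 0.22), and *Thbs1*, which frees latent TGF-beta, 141 and 154 and 1.47 and 1.16 CPM (-6.75 ± 0.39). *Ltbp2* was the member called higher (2.89 and 0.736 against 22.4 and 23.3 CPM, 3.64 ± 0.52). The other branch of the family moved up, with 6 of 12 BMP and Id genes higher and 2 lower. *Id2*, an inhibitor of basic helix-loop-helix factors and a BMP target, had 69 and 86.6 CPM in 2D and 958 and 959 CPM in D7 organoids (3.62 ± 0.16, adjusted p = 7.78e-12), *Id3* 14.8 and 15.8 and 232 and 117 CPM (3.51 ± 0.27) and the ligand *Bmp4* 5.06 and 5.89 and 33.6 and 27.1 CPM (2.47 ± 0.30). The ligand *Bmp2* was lower (3.61 and 2.94 against 0.123 and 0.194 CPM).

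EGF-type ligands and their feedback were lower, with 8 of 11 lower and none higher (median -2.20). *Hbegf* had 235 and 202 CPM in 2D and 9.07 and 4.85 CPM in D7 organoids (-4.92 ± 0.30), *Areg* 17 and 12 and 0.123 and 0 CPM, 193-fold (34.2 to 7673) lower, and the receptor inhibitor *Errfi1* 71.9 and 78.4 and 18.9 and 13.4 CPM (-2.20 ± 0.24). The FGF and MAPK feedback genes were not aligned with them, 7 of 15 being higher and 2 lower, in a medium that held FGF7 in both formats. The ETS factors *Etv1* (5.42 and 3.13 against 119.7 and 98.1 CPM, 4.66 ± 0.26) and *Etv5* (12.3 and 13.2 against 95.8 and 115 CPM, 3.04 ± 0.21) and *Spry2* (1.70 ± 0.20), all targets of FGF signalling, rose. So did *Fgfr2*, which encodes the FGF7 receptor (26 and 20.4 against 56.6 and 37.8 CPM, 1.03 ± 0.21), and *Fgfr3* (104-fold, 18.3 to 4131). *Dusp5* fell by 5.13 on the log2 scale.

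Notch genes changed in both directions, with 6 of 13 higher and 4 lower. The ligand *Jag1* had 443 and 425 CPM in 2D and 75.1 and 67.5 CPM in D7 organoids (-2.60 ± 0.20), whereas *Jag2* had 1.63 and 5.52 and 54.2 and 57.6 CPM (3.96 ± 0.35). Of the receptors, *Notch1* rose (2.10 ± 0.19) and *Notch2* fell by 1.19. Of the targets, *Hey1* rose (18.6 and 15.3 against 177 and 169 CPM, 3.35 ± 0.18) and *Hes1* and *Nrarp* fell by 1.84 and 3.10. The Wnt list gave 5 of 14 higher and 7 lower. *Wnt4*, a ligand of TECs, had 22.4 and 18.6 and 118 and 103 CPM (2.43 ± 0.18), and the pathway targets *Axin2* (0.542 and 0 against 4.78 and 4.65 CPM) and *Sp5* (0 and 0 against 2.21 and 4.46 CPM, at least 6.09-fold) were higher, both at low levels, while *Dkk3* was lower (-3.37 ± 0.29). Inflammatory chemokines and cytokines were lower in 8 of 14 and higher in 1. *Cxcl5* had 181 and 181 and 25 and 28.1 CPM (-2.78 ± 0.66), but was not called without any 1 of the 4 libraries (-2.86 to -2.69). *Ccl2* had 9.58 and 16.4 and 0.368 and 0 CPM, 57.5-fold (19.3 to 282) lower, and the alarmin *Il33* was the one higher (56.2 and 52.6 against 164 and 139.8 CPM, 1.48 ± 0.18).

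The insulin-like growth factor axis held some of the strongest opposite changes. *Igfbp4* and *Igfbp5*, binding proteins that modulate IGF signals, rose from 9.4 and 19.5 to 1018 and 1044 CPM (6.16 ± 0.26, adjusted p = 1.19e-11) and from 16.4 and 18 to 406 and 397 CPM (4.54 ± 0.18). They were the 2 higher of the 13 tested, while 9 were lower. *Igfbp7* had 118 and 99.7 and 9.68 and 3.88 CPM (-3.94 ± 0.30), and the receptor *Igf1r* 185 and 262 and 33.4 and 37.6 CPM (-2.66 ± 0.21). The oncofetal genes *Hmga2* (164 and 161 against 15.4 and 14 CPM, -3.46 ± 0.19) and *Igf2bp3* (94.9 and 93.3 against 16 and 16.5 CPM, -2.53 ± 0.19) were lower. *Igf2* had no count in any of the 4 libraries.

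A group of genes of the airway secretory epithelium was higher in D7 organoids, with 12 of 19 higher and 1 lower (median 3.59, 3.09 with genes at the floor set to their bound). The antimicrobial proteins *Bpifa1* and *Wfdc2* were abundant, at 1927 and 1688 CPM and 1794 and 2066 CPM in D7 organoids against 104 and 99.3 CPM and 242 and 212 CPM in 2D (4.15 ± 0.17 and 3.09 ± 0.16). *Cyp2f2*, the cytochrome of club cells, had 0.542 and 1.47 and 225 and 290.3 CPM (7.98 ± 0.43, adjusted p = 8.51e-10). The immunoglobulin transporter *Pigr* (0.904 and 0.368 against 16.7 and 20.2 CPM), the secretory chaperone *Agr2* (0 and 0.552 against 15.4 and 17.8 CPM) and the foregut factor *Sox2* (0.181 and 0 against 12.5 and 25.8 CPM, 194-fold, 34.4 to 7677) rose as well. The 2 organoid libraries did not carry this group alike. *Reg3g*, an antimicrobial lectin, was at 40.4 and 238 CPM in replicates 1 and 2 and *Scgb3a2* at 0.858 and 397 CPM, so the latter did not pass the filter. *Scgb1a1*, the club cell secretoglobin, had counts only in the second of the organoid libraries (0 and 3.3 CPM). *Lcn2*, an inducible antimicrobial gene, was high in both formats and not called (185 and 175 and 131 and 141 CPM, interval -1.88 to 1.06).

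Transport of ions and detoxification rose beside the secretory genes. Of 12 ion and water transport genes 7 were higher and 2 lower. The sodium pump subunit *Atp1b1* rose by 2.37 ± 0.15, and the basolateral chloride importer *Slc12a2* had 82.6 and 95.1 and 259 and 259 CPM (1.54 ± 0.16). The chloride channel *Cftr* had 7.05 and 6.62 CPM in 2D and 28.5 and 25.4 CPM in D7 organoids (1.98 ± 0.36). All 3 subunits of the epithelial sodium channel were higher, *Scnn1a* at 1.81 and 2.39 and 20.7 and 23.1 CPM (3.37 ± 0.39), *Scnn1b* at 0 and 0 and 6 and 7.17 CPM (at least 12-fold) and the low *Scnn1g* at 0 and 0.368 and 3.92 and 5.43 CPM (24.7-fold, 6.55 to 209). *Scnn1g* was not called without 2D replicate 1 or D7 replicate 2. The water channel *Aqp5* was lower (-1.09 ± 0.27). In the detoxification list 9 of 16 were higher and 3 lower. Beside *Fmo2*, *Fmo1* had 0.723 and 0.368 and 100.1 and 92.3 CPM (7.41 ± 0.34), the glutathione transferase *Gstm1* 22.2 and 18.8 and 419 and 459.9 CPM (4.42 ± 0.20) and the aldehyde dehydrogenase *Aldh3a1* 0.181 and 0.184 and 12.1 and 13.8 CPM, 70.01-fold (19.1 to 583). *Srxn1*, a redox repair enzyme, and *Aldh1a3*, which makes retinoic acid, were lower, by -4.21 ± 0.23 and -1.90 ± 0.19.

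Glycolytic and hypoxia-responsive genes were lower in D7 organoids, 21 of 27 with 2 higher (median -2.17). The hypoxia targets *Ndrg1* (154 and 243 CPM in 2D, 2.7 and 6.01 CPM in D7 organoids, -5.59 ± 0.35), *P4ha2* (82 and 93.4 and 2.57 and 3.49 CPM, -4.88 ± 0.34), the lactate exporter *Slc16a3* (42.5 and 66.8 and 0.613 and 0.582 CPM, -6.46 ± 0.46) and *Car9* (21 and 23.9 and 0.123 and 0 CPM, 299-fold, 53.1 to 11845) had the largest folds. Enzymes of the main route differed by less, with log2 fold changes of -2.15 ± 0.16 for *Ldha*, -2.19 ± 0.17 for *Aldoa* and -1.48 ± 0.18 for *Pkm*. The hexokinase *Hk1* was 1 of the 2 higher (0.81 ± 0.21). *Gapdh* and *Pgk1* were listed at under 100 CPM in all 4 libraries. These genes have many processed copies in the genome, so their values are uncertain. Oxidative phosphorylation did not shift as a whole, with 20 of 56 genes higher, 16 lower and a median of 0.04. Cholesterol and fatty acid synthesis gave 7 of 27 higher and 7 lower, with *Elovl6*, a fatty acid elongase, among the higher (1.80 ± 0.18). These counts are near the shares of all genes tested, 25.3% higher and 22.6% lower, which also stand beside the lists that follow. In the amino acid and ER stress list 4 of 20 were higher and 6 lower, with *Trib3* (39.4 and 40.1 against 0.98 and 2.71 CPM) and *Asns* (81.7 and 93.8 against 11.8 and 9.31 CPM) the furthest down. Cathepsin and lysosome genes gave 4 of 15 higher and 7 lower.

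D7 organoids exceeded 2D cultures in many cell cycle genes, while most genes of the 2 lists were lower at D7 than at D3. Of the S-phase genes 26 of 43 were higher and 1 lower (median 0.88), and of the G2 and M-phase genes 29 of 54 were higher and 4 lower (median 0.63). *Top2a*, topoisomerase II of dividing cells, had 182 and 175 CPM in 2D, 1035 and 802 CPM in D3 organoids and 556 and 615 CPM in D7 organoids, and *Mki67* had 65.8 and 67.9, 360.3 and 337 and 183 and 232 CPM. D7 organoids were above 2D by 1.71 ± 0.15 and 1.63 ± 0.16. *Hjurp* and *Hmgb2* rose the most among the abundant members (2.26 ± 0.18 and 2.22 ± 0.17), and *Gtse1* and *Nek2* fell by 2.52 and 2.21, the former -4.65 without D7 replicate 1. Other members were not called at D7. *Cdk1* had 88.7 and 49.1 CPM in 2D, 261 and 265 CPM at D3 and 85.1 and 41.9 CPM at D7 and was not called between D7 organoids and 2D, where both groups spread widely.

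Inhibitors of the cycle changed in both directions. The inhibitor *Cdkn2b* (p15) had 176 and 147 CPM in 2D and 4.04 and 2.33 CPM in D7 organoids (-5.60 ± 0.30, adjusted p = 7.93e-11), *Cdkn1a* (p21) 516 and 584 and 47.2 and 55.8 CPM (-3.42 ± 0.23) and *Cdkn2a* (p16 and p19ARF) 53.3 and 56.3 and 10.2 and 5.82 CPM (-2.74 ± 0.30). *Cdkn1b* (p27) was higher (48.6 and 48.7 against 96.5 and 85.9 CPM, 0.91 ± 0.17), as was *Cdkn2c* (p18), which had no count in 2D and 6.98 and 7.95 CPM in D7 organoids, at least 13.7-fold. D-type cyclins changed places, *Ccnd1* at 646 and 537 and 126 and 109 CPM (-2.33 ± 0.18) and *Ccnd2* higher by 1.16 ± 0.14, and their partner *Cdk6* was lower (276 and 316 against 39.8 and 30.2 CPM, -3.07 ± 0.20). Across this list 5 of 13 were higher and 6 lower. Targets of p53, which share *Cdkn1a* with it, gave 8 of 10 lower and 1 higher, with *Mdm2* at 185 and 156 and 62.2 and 59.1 CPM (-1.49 ± 0.16), *Zmat3* at 88.2 and 117 and 28.4 and 38.4 CPM (-1.62 ± 0.21) and *Sesn1* the one higher (8.13 and 1.84 against 42.1 and 41.9 CPM).

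D3 organoids, as old as the 2D cultures, give a second point in time. Both comparisons share the 2D libraries, so their values are given side by side, and the step from D3 to D7 is the tested one. The actin list had a median of -1.86 at D3 and -2.01 at D7 over 2D, and 8 lower and 3 higher at D7 than at D3. Medians were similar on both days for YAP and TEAD targets (-1.62 and -1.59), TGF-beta and activin (-1.66 and -1.80) and integrins (-1.76 and -1.74). So were those of simple keratins (-3.51 and -3.25) and glycolysis and hypoxia (-1.80 and -2.17). Single members still moved from D3 to D7, where 11.1% of all genes tested were higher and 10.8% lower. Of YAP and TEAD targets 4 of 21 were higher at D7 than at D3 and 5 lower, and of TGF-beta and activin 3 of 18 and 5. Integrins had 2 of 11 higher and none lower, simple keratins 2 of 6 and 1, and glycolysis and hypoxia 3 of 27 and 6. The cortical list was at 0.56 on D3 and 3.51 on D7, and 10 of its 14 genes were higher at D7 than at D3, none lower. The airway-type list was at 1.60 and 3.59, with 14 of 19 higher at D7 than at D3, and ion and water transport at -1.001 and 1.10, with 10 of 12 higher. MHC class II was at 1.47 and 3.86, with 6 of 7 higher at D7 than at D3. The medullary list, below 2D on both days, was at -3.31 and -1.36, with 8 of 13 higher at D7 than at D3 and 2 lower. In the opposite direction, 34 of 43 S-phase genes, 38 of 54 G2 and M-phase genes and 14 of 27 cholesterol and fatty acid genes were lower at D7 than at D3, and none higher.

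**Figure D4:**
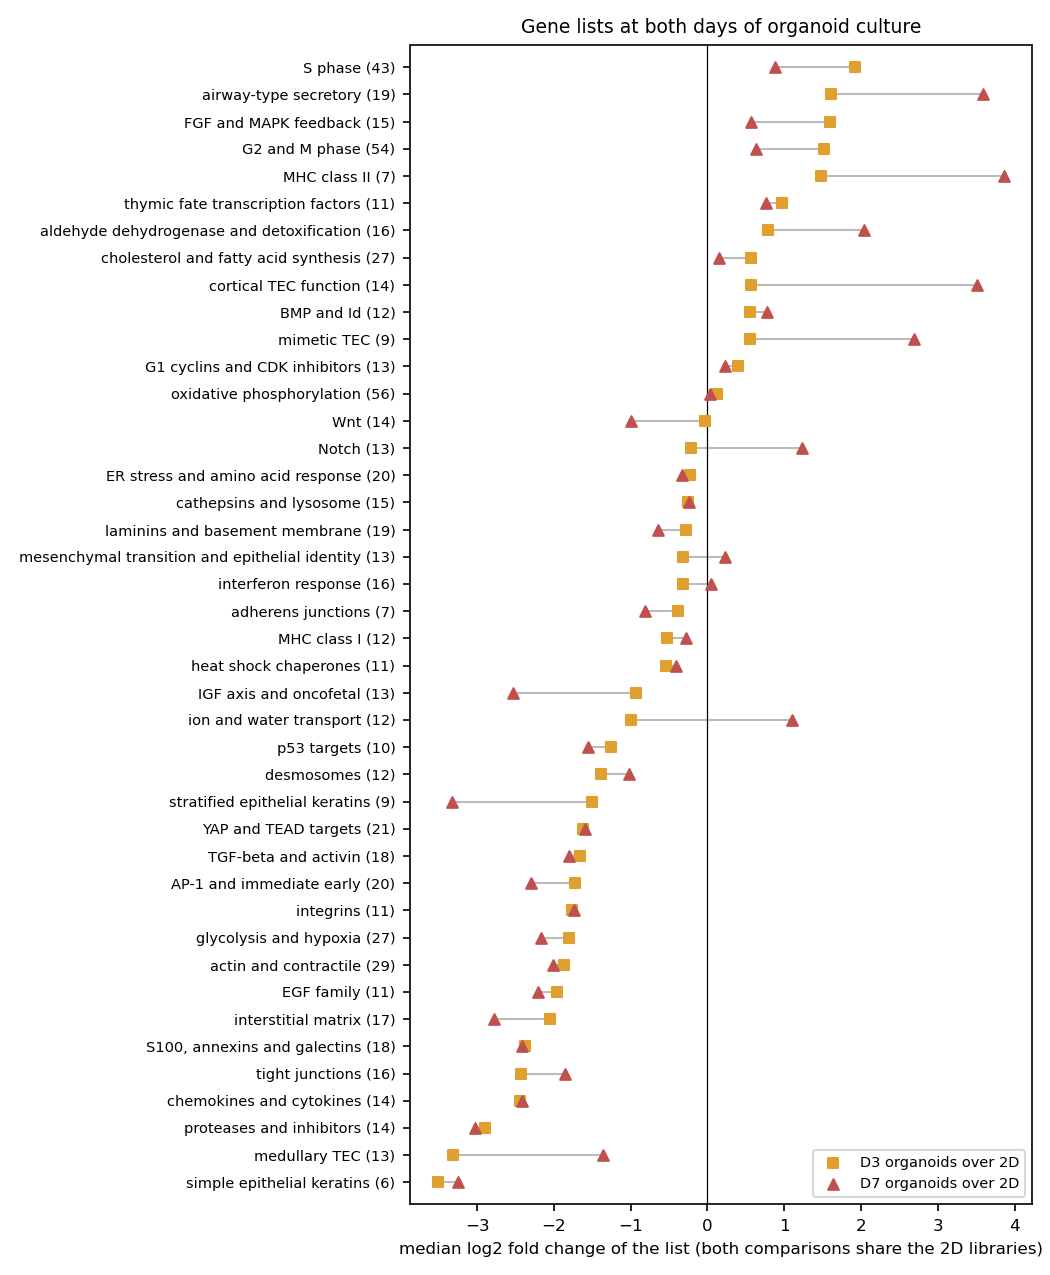
For each gene list (genes tested in brackets), the orange square is the median log2 fold change of D3 organoids over 2D and the red triangle that of D7 organoids over 2D, which share the 2D libraries. Actin, integrin and TGF-beta lists lie at about the same place on both days. Secretory, cortical, medullary and MHC class II lists lie further right at D7, and cell cycle lists further left at D7.

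Single genes followed either course. *Tbata* and *Prss16* were 6.90 ± 0.34 and 3.14 ± 0.15 higher at D7 than at D3 (adjusted p = 5.01e-10 and 3.46e-10), and *Ascl3* 6.61 ± 0.61 (adjusted p = 1.63e-06), with 0.847 and 0 CPM at D3. *Cxcl12*, *Kitl* and *Ackr4* were already high at D3, at 255 and 264, 198 and 189 and 154 and 174 CPM, and were not called between D3 and D7 (adjusted p = 0.833, 0.943 and 0.145). *Ccl25* was lower at D3 (5.08 and 2.38 CPM) than in 2D (adjusted p = 0.00367) and higher at D7 than at D3 by 4.35 ± 0.26 (adjusted p = 5.69e-09). *Spp1* (osteopontin) had 115 and 64.7 CPM in 2D and 109 and 107 CPM at D3, which was not called (adjusted p = 0.46), and 1.59 and 2.13 CPM at D7, lower than at D3 by -5.88 ± 0.38 (adjusted p = 6.44e-08). *Hmga2* was at 116 and 98.1 CPM on D3, and was lower at D7 than at D3 by -2.85 ± 0.19 (adjusted p = 3.02e-08). *Lgmn*, a lysosomal protease, was higher at D3 (75.9 and 63.5 CPM) than in 2D (46.3 and 27.2 CPM, adjusted p = 0.0241) or at D7 (8.21 and 2.91 CPM, adjusted p = 5.88e-06).

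Markers of most other cell types were low in all 4 libraries, while mesenchyme markers summed to more in D7 organoids than in 2D. Thymocyte markers summed to at most 9.69 CPM in any of them, and neither of the 2 that passed the filter was called. Of 9 mesenchyme markers 6 passed the filter, 2 higher and 2 lower, and the summed level was 40.7 and 33.8 CPM in 2D and 80.2 and 72.1 CPM in D7 organoids. In the in vivo libraries it was 48.8 and 48.3 CPM. *Dcn* (decorin, 1.45 and 4.6 CPM in 2D, 52.9 and 50.02 CPM in D7 organoids) and *Lum* (lumican, 0 and 0.184 and 14.7 and 7.37 CPM) were the 2 higher, while *Col1a1* was lower (12.8 and 9.57 against 1.47 and 1.16 CPM) and the defining genes *Pdgfra*, *Pdgfrb* and *Prrx1* were at 0.858 and 0.194, 0.245 and 0 and 0 and 0 CPM in D7 organoids. *Col6a1*, *Col6a2*, *Col14a1* and *Mmp2*, which fibroblasts also express, rose with *Dcn* and *Lum*, and the part of such cells in them was not tested. Of 7 myeloid markers *Lyz2* passed the filter and was higher (0 and 2.39 against 12 and 10.1 CPM, not called without D7 replicate 1, at 3.06), and *Csf1r*, *Itgam*, *Adgre1*, *Tyrobp* and *C1qa* had no count in D7 organoids. Endothelial markers summed to at most 3.86 CPM and parathyroid markers to at most 5.27 CPM in the 4 libraries. The erythroid *Alas2*, at 1.23 and 2.13 CPM in D7 organoids and none in 2D, was called, though not without any 1 of the 4 libraries. No globin gene had a count. The erythroid list summed to only 7.39 and 12.1 CPM in the in vivo libraries. How reads matching several genes were counted is not given, so these zeros are uncertain.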

How the data were processed

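RNA of 8 libraries (2 each of freshly sorted in vivo TECs, 2D cultures, D3 organoids and D7 organoids) was prepared by 3′ end sequencing of polyadenylated RNA. The authors deposited 1 file of raw counts per library and gene, aligned with STAR to GRCm39. Their own comparison used R 4.1.2, edgeR and limma. How reads on several genes and on either strand were counted is not given in the sources used here. Gene symbols came from an annotation table matched by gene identifier, with 56236 of 56923 matched.

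For this comparison, genes with 1 CPM in 2 of the 4 libraries were kept. The quasi-likelihood test of edgeR 4.0.16 (R 4.3.3) was fitted on the raw counts of all 8 libraries with TMM factors, 4 groups and no replicate block, and p-values were adjusted after Benjamini and Hochberg over 14306 genes. This main fit was also run on simulated counts with known changes, in which far fewer genes were changed than were called in the data. The alternative fits were not tested in this way. The totals of the 4 libraries were 5084715 to 7612532 counts, and 3 counts came to 0.547 CPM in 2D and 0.475 CPM in D7 organoids on average. Genes were named by rule: the 12 largest fitted changes in each direction with at least 20 CPM in the higher group, up to 4 called members per list and direction, further members where their role called for it, and the 5 most abundant genes of each group, ribosomal RNA and mitochondrial genes left out. The members and the 49 gene lists were chosen with earlier results of these data known, so their counts are descriptions beside the share of all genes and carry no test of the list. The study gives its replicates as mice, but whether embryos were pooled or shared between groups is not given in the sources used here, so p-values measure the spread between these libraries. Promoter motifs were counted in RefSeq windows (GRCm38.p6) matched by symbol. Alternatives were other scalings, filters and tools (limma 3.58.1, DESeq2 1.42.0), each library left out, the replicate block and a fold threshold. All coordinates of promoters are of GRCm38.p6, and no other coordinates are printed. Some genes that the naming rule covers are not reported here.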

Additional observations from a re-analysis of the deposited data

How the results depend on the processing

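Counts of higher and lower genes stayed within 1.5 times of 3618 and 3234 under every scaling, filter and tool tried. Higher genes numbered 2430 with a mean of at least 10 CPM to 4451 with library totals only, and lower genes 2454 with library totals only to 3658 with the 4 libraries fitted alone. The exception was the requirement of a fold change of at least 1 on the log2 scale, which left 2685 higher and 2061 lower. Leaving out each library in turn gave 2606 to 2801 higher and 2311 to 2672 lower, with the lone library assumed to vary like the other groups. With library totals only, 64.5% of calls were higher instead of 52.8%. limma-voom and DESeq2 called 6165 of the 6852 genes the same way. Same-numbered libraries of the 2 groups deviated together with r = 0.208 over 8908 genes, and those of other pairs with r from 0.0631 to 0.171, so the numbers are not taken to pair the samples. With the replicate block, 3743 genes were higher and 3371 lower, and 6792 of the 6852 were called the same way.

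Of 3268 recomputed fold changes of 237 named genes, 3210 kept their direction and call. The cause of the changes below was not tested. Under library totals only, *Cdk1* and *Malat1*, which were not called, turned to 0.12 and 0.13. Leaving out single libraries gave -0.72 to 0.39 for *Cdk1* and -0.41 to 0.31 for *Malat1*. *Hsp90ab1*, not called at -0.32, was called in 6 settings at -0.36 to -0.33. Calls were lost without single libraries for *Csrp1* (0.43 to 0.63 over the libraries left out), *Cxcl5* (-2.86 to -2.69), *Egr1* (-0.78 to -0.66), *Itgb3* (-3.88 to -2.76, without D7 replicate 1), *Lyz2* (2.20 to 9.15, without D7 replicate 1), *Pou2f3* (2.55 to 6.86), *Scnn1g* (3.59 to 7.90), *Tslp* (-2.06 to -1.31), *Avil* (2.82 and above), *Bsnd* (7.03 to 7.31) and *Alas2* (up to 6.69). *Ctnnd1* (-4.03), *Reg3g* (8.84) and *Gas6* (2.64) were not called with the 4 libraries alone, nor *Col4a3* (-10.62), *P2rx2* (-9.91) and *Bsnd* (6.40) by DESeq2. With every gene of 1 count or more, *Avil*, *Cxcl5*, *Gas6* and *Pou2f3* were not called, with library totals only *Egr1* (-0.50) and *Tslp* (-1.52), and with 1 CPM in 3 of 8 libraries *Tslp* (-1.72). *Lcn2* was called with the 4 libraries alone (-0.44) and *Srf* without D7 replicate 1 (-6.60). Fitted values of genes with few counts in a library depend on that library, among them *Ccn2*, *Itgb6*, *Gtse1* and *Atp6v1g3*, which moved by more than 1.5 times without 1 library. List medians turned sign for interferon response (-0.23 to 0.33 over the libraries left out), oxidative phosphorylation (-0.01 to 0.14), Notch (-0.43), G1 cyclins and CDK inhibitors (-0.20) and mesenchyme markers (4.13), the last 3 with a mean of at least 10 CPM. No other list median changed sign. Changes in genes under about 0.475 CPM were not detectable at this depth.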

Other observations

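Several genes of ionocytes, the proton- and chloride-moving cells of airway, kidney and inner ear, were found among the increases of D7 organoids. They were picked after their values were seen, so no test of the group was made. Beside the factors *Foxi1* and *Ascl3* and the pump subunit *Atp6v1b1*, the related factor *Foxi2* had 0 and 0 CPM in 2D and 8.21 and 7.17 CPM in D7 organoids, at least 14.1-fold higher. The pump subunits *Atp6v0d2* (0 and 0.368 against 12 and 6.2 CPM, 53.5-fold, 14.5 to 447) and *Atp6v1g3* (0.904 and 0 against 19.1 and 22.7 CPM, 5.46 ± 0.78, but 10.05 without 2D replicate 1, which holds its 5 counts in 2D) and *Bsnd*, the partner of kidney and ear chloride channels (0 and 0 against 3.06 and 2.71 CPM, at least 5.28-fold), were higher too. *Bsnd* was not called without 2D replicate 1 or 2 or D7 replicate 1, nor by DESeq2. At D3, *Foxi1*, *Foxi2*, *Atp6v0d2*, *Atp6v1g3* and *Bsnd* were at 0.508 and 0, 0 and 0, 0.169 and 0, 0.339 and 0 and 0 and 0 CPM, whereas *Atp6v1b1* was at 53 and 63 CPM. *Pou2f3* and *Avil*, of tuft cells, were at 1.84 and 2.71 and 2.82 and 2.52 CPM in D7 organoids, and their calls were lost without single libraries (*Avil* without 2D replicate 2, at 2.82, or D7 replicate 1 or 2, at 3.65 and 3.82).

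The 2 D7 libraries differed in some genes by more than their distance in most others. Replicate 2 was higher for *Cbr2*, a carbonyl reductase of lung (347 and 711 CPM, against 58.7 and 78.5 CPM in 2D), and for *Selenbp1* (37.7 and 82.8 against 2.17 and 4.05 CPM), as it was for *Scgb3a1*, *Scgb3a2* and *Reg3g*. Replicate 1 was higher for *Gas6*, the ligand of AXL-type receptors (93.8 and 28.3 against 8.31 and 11 CPM in 2D, not called with the 4 libraries alone). These genes were picked for the difference, and 2 libraries cannot say which of them is typical.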
